A study of Mus musculus with 6 samples.

Results

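Basal epidermis and outer root sheath (ORS) of mice labelled Ezh1/2 2KO, a double knockout of Ezh1 and Ezh2, were compared on Affymetrix arrays, to describe which differences between the 2 cell populations are present without the 2 genes. The comparison uses 2 of the 6 arrays of the series, those titled for FACS-purified basal epidermal cells and ORS cells of the 2KO genotype. The WT basal epidermis and WT ORS arrays serve as the reference pair, and the remaining 2 arrays, of the hair matrix of each genotype, enter through the choice of probe sets and the floor. Each of the 6 groups has 1 array, so the differences below have no replicate check and carry no test or p-value. All groups were labelled as skin of 14-day-old mice on a mixed C57B6 and CD1 background. The 2KO basal epidermis sample was labelled female and the other 5 samples female and male. The labels do not give the Cre or promoter behind the deletion, the number of mice pooled, the surface markers of the sort, or whether both 2KO samples came from the same mice. Of 18193 genes with a probe set naming 1 gene, 11966 were measured in the 2KO pair, meaning that at least 1 of the 2 signals reached a floor of 83.2 signal units (the median signal of the 6 arrays together). Signals below the floor were raised to it before the log2 ratio of basal epidermis over ORS was taken, and where 1 of the 2 was raised the fold is a lower limit, written as at least N-fold.

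The basal epidermis is the attached, dividing layer of the skin surface. Its daughter cells move outwards through the spinous layer, where they switch to the keratins Krt1 and Krt10, and end as cornified cells sealed by cross-linked envelope proteins. The ORS is the outer cell layer of the hair follicle, continuous with the basal epidermis and attached to the same kind of basement membrane. Its upper part holds the bulge with the follicle stem cells, which are known for the transcription factors Sox9, Lhx2 and Tcf7l1 and the receptor Lgr5. Ezh1 and Ezh2 are the alternative catalytic subunits of Polycomb repressive complex 2, which methylates lysine 27 of histone H3 and keeps developmental genes silent outside their lineage.

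The targeted genes checked the genotype labels. The Ezh2 probe set read 432 and 378 on the 2KO basal epidermis and ORS arrays and 2563 and 2151 on the WT arrays. Ezh1 read 57.4 and 51.6 in 2KO, both below the floor, and 401 and 380.2 in WT. Both genes were lower on both 2KO arrays, and neither differed by 2-fold between the cell populations of a genotype. The sex label of the 2KO basal epidermis array was not matched by its signals. The Y-linked genes Eif2s3y and Kdm5d read 1194 and 218 there, against 920.0 and 162 on the 2KO ORS array, 580.1 and 83.4 on the WT basal epidermis array and 295 and 91.2 on the WT ORS array, while Xist, expressed from the inactive X, read between 7837 and 9926 on these 4 arrays. Xist was read from its brightest probe set, with a 2KO log2 ratio of -0.34. That ratio was -0.77 with all probe sets averaged and -1.79 without _x_at and _s_at probe sets, so Xist was not even between the 2KO arrays on every probe set. Uty read 118 and 131 in 2KO and 84.4 and 89.5 in WT. The array labelled female thus carried Y-linked signal, and the counts below were also computed without genes on X and Y (505 and 778 genes in place of the 517 and 805 given below). The floor was passed by 47.7% to 53.1% of probe sets on each array, and the median signal was 78.4 for 2KO basal epidermis and 99.0 for 2KO ORS.

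The cell type labels were set against marker genes. Krt1 read 17735 on the 2KO basal epidermis array and 872 on the 2KO ORS array, a 20.3-fold difference, beside 16394 and 732 in WT (22.4-fold). Krt1 marks cells above the basal layer, so its signal on an array titled for basal cells goes against that title, in both genotypes. The basal keratins Krt5 (30628 and 24998) and Krt14 (29773 and 23202) were bright on both 2KO arrays and differed by under 2-fold between them. Of the ORS markers, Lhx2 read 520.2 in 2KO basal epidermis and 5050.3 in 2KO ORS (9.71-fold), against 141 and 4349 in WT (30.8-fold). Sox9, which follicle stem cells need, read 2253 and 4650.2 in 2KO (2.06-fold higher in ORS) and 3017 and 5089 in WT (1.69-fold). Its 2KO ratio fell under 2-fold when all its probe sets were averaged, so Sox9 separated the populations weakly in both genotypes. Tcf7l1 and Lgr5 were at least 3-fold higher in ORS in both genotypes. The 1 other measured probe set of Tcf7l1 was not 2-fold higher in 2KO ORS. Nfatc1, a regulator of stem cell quiescence, read 1550.4 and 3145 in 2KO (2.03-fold) and 1203 and 1291 in WT, where it missed 2-fold.

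In the 2KO pair, 517 genes were at least 2-fold higher in basal epidermis, 4.32% of the genes measured, and 805 were at least 2-fold higher in ORS, 6.73%. The WT pair gave 470 (4.15%) and 666 (5.88%) of 11320 genes measured. For 68 of the 2KO epidermal genes and 154 of the 2KO ORS genes the other side lay at the floor, so that the fold is a lower bound. Basal epidermis held 39.1% of the 2KO calls. That split rests on the scaling: with the arrays set to a common median it was 73.4%, because the median ratio of all genes moved from -0.02 to 0.30, and after quantile normalization it was 52.7%. Over all genes measured, the median log2 ratio was -0.02 in 2KO and -0.03 in WT, and the list medians below are to be read against it. The list counts below are likewise to be read against the shares of all genes called: 4.32% and 6.73% in 2KO, 4.15% and 5.88% in WT. Counts in each direction are relative to the scaling, and the named genes below were chosen for large ratios. Taken per probe set rather than per gene, 744 of 21250 measured probe sets were 2-fold higher in 2KO basal epidermis and 1565 in ORS. Where a called gene had other measured probe sets, these served as a check within the arrays. For genes called in basal epidermis, 88.1% of 253 other probe sets had the same sign and 43.1% were also 2-fold. For genes called in ORS, 96.3% of 619 had the same sign and 48.3% were also 2-fold.

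Of the 470 genes 2-fold higher in WT basal epidermis, 166 were also 2-fold higher in 2KO basal epidermis. These 166 are 35.3% of the WT genes and 32.1% of the 2KO genes called in that direction. On the ORS side the overlap was 272 genes, 40.8% of the WT and 33.8% of the 2KO genes. The WT and 2KO pairs share no array. Across the 10969 genes measured in both pairs, the WT and 2KO log2 ratios had a Pearson correlation of 0.51 and a Spearman correlation of 0.41. This is a description across genes, which are not independent replicates and whose points share probe sets and array scaling.

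**Figure D1:**
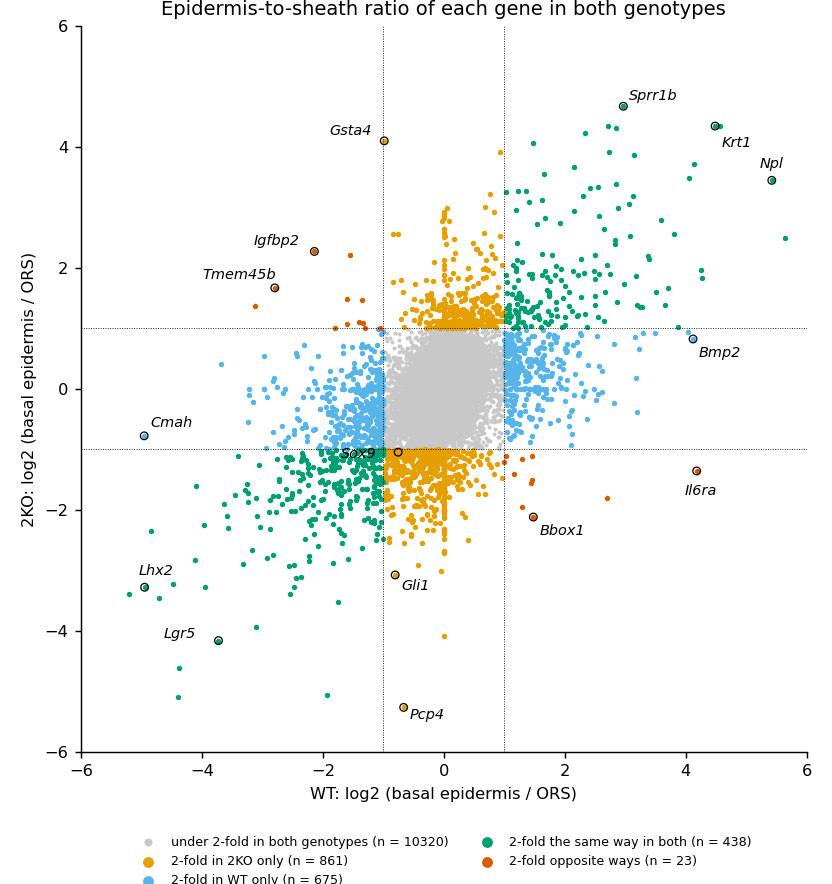
Log2 ratio of basal epidermis over ORS for each gene measured in either genotype, WT on the horizontal and 2KO on the vertical axis, with points coloured by whether the gene passed 2-fold in 1 or both genotypes and dotted lines at 2-fold. The 438 genes called the same way in both genotypes lie in the upper right and lower left corners, and 23 genes were called in opposite directions.

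Whether a WT difference was also called in 2KO went with its size. Of the genes 2-fold to 3-fold higher in WT basal epidermis, 24.5% of 277 were also called in 2KO, then 38.7% of 119 between 3-fold and 5-fold, 66.7% of 54 between 5-fold and 10-fold, and 80.0% of 20 above 10-fold. For WT ORS genes the shares were 29.9% of 391, 49.7% of 173, 62.2% of 82 and 90.0% of 20. Genes chosen on the 2KO pair gave similar ends of the range: 89.5% of the 19 epidermal and 81.8% of the 11 ORS genes above 10-fold were also called in WT, against 21.7% of 359 and 26.9% of 540 between 2-fold and 3-fold. Of the 293 epidermal genes called in WT and not in 2KO, 196 kept their sign and 180 had a 2KO ratio at least 2-fold below the WT ratio. Of the 382 ORS genes not called in 2KO, 272 kept their sign and 213 shifted by at least 2-fold. Over all genes measured in either genotype, 649 of 12317 (5.27%) shifted by at least 2-fold towards basal epidermis in 2KO and 741 (6.02%) towards ORS.

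**Figure D2:**
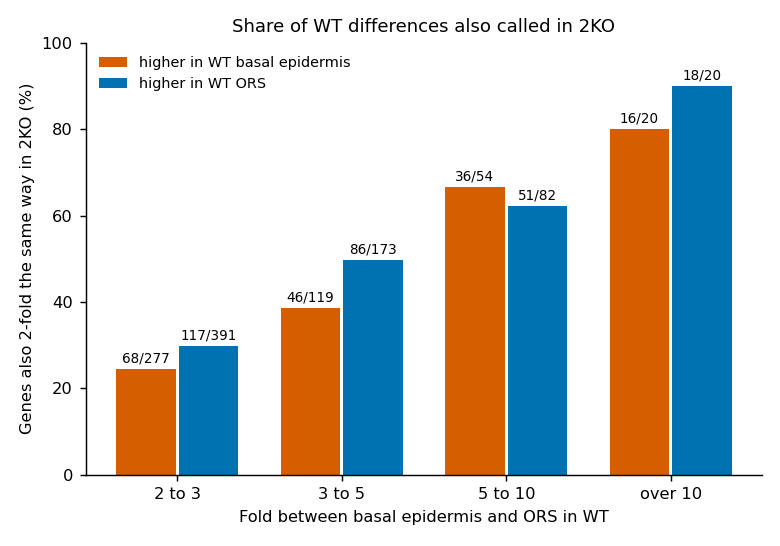
Percentage of genes called in WT that were also at least 2-fold the same way in 2KO, by size of the WT difference, with the number of such genes over the number in the bin above each bar. Bars are single shares with no replicate error. Both directions go from under 30% for differences of 2-fold to 3-fold to at least 80.0% above 10-fold.

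The largest epidermal difference in 2KO lay in a gene cluster. Sprr1b, a small proline-rich protein cross-linked into the cornified envelope, read 9051 in 2KO basal epidermis and 355 in 2KO ORS (25.5-fold), and 1847 and 236 in WT (7.83-fold). In the order of RefSeq genes, 8 consecutive measured genes of this family were called in 2KO basal epidermis, from Sprr2d to Sprr1a, and 4 of them were also called in WT. Sprr2d read 2488 and 299 in 2KO and 796 and 95 in WT, with nearly the same ratio. Sprr2h read 2879 and 226 against 446 and 100.5. Sprr1a, a close relative of Sprr1b, read 5996 and 2000.3 in 2KO and 6865 and 7906 in WT, where it did not differ by 2-fold. Sprr2i, Sprr2j-ps and Sprr2k were below the floor on both WT arrays and read 309, 496 and 325 in 2KO basal epidermis. The Sprr2 genes are close copies of each other, and their probe sets may share transcripts, so the members are not independent of each other.

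Because these neighbours lay on the same side together, the 250 bases before their start sites are shown for the 7 that have a promoter in the RefSeq table (GRCm38.p6, chromosome 3). Capitals mark TATAAA, the TATA box sequence, searched on the gene's strand within 50 bases of the start, and TGANTCA, where N is any base. TGANTCA reads the same on both strands and is wider than the AP-1 site, which is TGAGTCA or TGACTCA.
Sprr2d (chr3:92338890-92339139, + strand): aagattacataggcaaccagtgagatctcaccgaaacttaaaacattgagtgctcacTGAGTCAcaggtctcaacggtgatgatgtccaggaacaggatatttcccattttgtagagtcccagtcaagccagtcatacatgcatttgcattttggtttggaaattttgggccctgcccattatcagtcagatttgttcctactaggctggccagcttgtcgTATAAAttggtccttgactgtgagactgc
Sprr2f (chr3:92364937-92365186, + strand): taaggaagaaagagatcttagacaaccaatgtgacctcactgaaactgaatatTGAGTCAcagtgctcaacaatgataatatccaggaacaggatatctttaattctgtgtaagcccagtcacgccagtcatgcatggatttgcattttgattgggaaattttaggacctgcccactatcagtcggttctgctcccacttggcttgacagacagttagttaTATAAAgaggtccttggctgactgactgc
Sprr2h (chr3:92385435-92385684, + strand): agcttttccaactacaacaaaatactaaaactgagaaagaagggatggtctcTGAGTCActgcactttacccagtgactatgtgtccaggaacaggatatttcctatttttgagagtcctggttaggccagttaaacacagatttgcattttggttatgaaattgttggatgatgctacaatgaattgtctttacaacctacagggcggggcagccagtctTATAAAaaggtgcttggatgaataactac
Sprr2i (chr3:92407741-92407990, + strand): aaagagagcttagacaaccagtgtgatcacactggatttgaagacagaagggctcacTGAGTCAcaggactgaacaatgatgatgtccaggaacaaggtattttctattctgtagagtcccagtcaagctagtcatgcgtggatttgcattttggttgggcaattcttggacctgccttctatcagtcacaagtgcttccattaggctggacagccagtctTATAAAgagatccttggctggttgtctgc
Sprr2k (chr3:92432332-92432581, + strand): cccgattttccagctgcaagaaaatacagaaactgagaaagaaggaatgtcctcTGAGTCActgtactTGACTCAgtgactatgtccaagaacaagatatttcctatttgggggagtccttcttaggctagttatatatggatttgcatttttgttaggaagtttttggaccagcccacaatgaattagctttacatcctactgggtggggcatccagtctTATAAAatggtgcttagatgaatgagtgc
Sprr1b (chr3:92438780-92439029, - strand): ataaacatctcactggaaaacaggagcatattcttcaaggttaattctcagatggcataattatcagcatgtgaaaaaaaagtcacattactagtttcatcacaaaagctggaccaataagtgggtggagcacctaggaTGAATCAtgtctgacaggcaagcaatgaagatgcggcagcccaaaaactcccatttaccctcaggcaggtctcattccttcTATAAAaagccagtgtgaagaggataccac
Sprr1a (chr3:92485882-92486131, - strand): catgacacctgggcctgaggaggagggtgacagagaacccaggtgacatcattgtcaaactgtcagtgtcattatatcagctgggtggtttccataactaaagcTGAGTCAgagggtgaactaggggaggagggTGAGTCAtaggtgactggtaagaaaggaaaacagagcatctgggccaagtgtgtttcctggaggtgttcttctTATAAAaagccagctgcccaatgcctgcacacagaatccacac
All 7 held both patterns, which do not overlap in any of them. The only TGANTCA match in Sprr1b was TGAATCA, which is not the AP-1 site. Of all 32851 promoters in the table, 2.63% held TATAAA in that window, 6.75% held TGANTCA in the 250 bases and 0.338% held both. TATAAA began 29 bases before the start in the 5 Sprr2 genes, 30 bases before it in Sprr1b and 43 bases before it in Sprr1a. The Sprr2 promoters resemble each other, with ungapped identities from 42.0% to 69.6%, so they count as copies rather than as separate observations. The matches describe these letters and say nothing of binding.

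Early differentiation genes were the list with the most epidermal calls for its size. In 2KO, 12 of 15 measured members were 2-fold higher in basal epidermis and 0 in ORS, with a median log2 ratio of 1.98. WT gave 11 and 1, with a median of 1.48, and 9 members were called in both genotypes. Krt10, the partner of Krt1, read 34141 and 3273 in 2KO and 28000.4 and 3904 in WT, a 10.4-fold difference in 2KO and a 7.17-fold difference in WT. Calm4, a calcium-binding protein of differentiating keratinocytes, read 11049 and 663 in 2KO (16.7-fold) and 14000.0 and 5026 in WT (2.79-fold), the wider 2KO ratio coming with a lower ORS signal. Dsc1 and Dsg1b, desmosomal cadherins of upper epidermal layers, read 2461 and 255 for Dsc1 and 549 and 82.9 for Dsg1b in 2KO. The 1 other measured probe set of Dsc1 was not 2-fold higher in 2KO basal epidermis. Dsc1 and Dsg1b stand beside Dsc2 and Dsg1a in a run of 4 neighbouring genes all called in 2KO basal epidermis, 3 of them also in WT. An exception was Krt77, a keratin of the suprabasal layers and sweat ducts, which read 112 and 68.8 in 2KO and 7616 and 1936 in WT. Krt77 was thus near the floor on both 2KO arrays and its WT difference was absent there.

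Cornified envelope and desquamation genes showed a wider separation in 2KO than in WT. Of 24 measured members, 12 were 2-fold higher in 2KO basal epidermis and 1 in ORS, with a median of 1.08. That 2KO median was 0.53 with the floor at the 25th percentile, 2.10 with it at the 75th, and 0.62 with all 4 signals above the floor. Those called in basal epidermis include Sprr1b, Sprr2d and Sprr2h of the cluster above, so they are not all independent of each other. Without _x_at and _s_at probe sets the 2KO counts were 9 and 0. In WT 7 of 24 were higher in basal epidermis and 1 in ORS, with a median of -0.11 that turned positive under several alternatives, among them a common median (0.13) and quantile normalization (0.09). Tgm3, an enzyme that cross-links envelope proteins, read 1997 and 152 in 2KO and 1469.8 and 70.9 in WT. Csta1, a cysteine protease inhibitor of the envelope, read 4285 and 285 in 2KO (15.1-fold) and 2224 and 336 in WT (6.61-fold). Both were called in both genotypes, and Csta1 lies in a run of 5 called neighbours that includes the stefin genes Stfa2l1 and Stfa3. Klk8, a kallikrein protease, read 4968 and 531 in 2KO and 2412 and 1417 in WT, where it missed 2-fold. Lce3c, a late envelope gene, read 522 in 2KO basal epidermis and lay below the floor on the other 3 arrays. Not all envelope genes lay on that side: Ivl, involucrin, read 259 and 418 in 2KO and 295 and 796 in WT, and Flg, filaggrin, lay below the floor on both 2KO arrays.

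Transcription factors of epidermal differentiation gave 6 of 19 measured genes in 2KO basal epidermis and 0 in ORS, the same counts as in WT. The counts hid different members, since 3 were called in both genotypes. Those were Grhl3, Ovol1 and Zfp750, regulators of barrier genes. Grhl3 read 3379.5 and 398 in 2KO (8.49-fold) and 813 and 307 in WT (2.65-fold). Zfp750 read 1736 and 224 in 2KO and 2045 and 889 in WT. Ehf, an Ets-family factor of epithelia, read 3616 and 478 in 2KO and 2789 and 1565 in WT, and both its other probe sets were also 2-fold in 2KO. Ets1, another family member linked to keratinocyte stemness, went the other way: it read 1943 and 3683 in 2KO and 2743 and 635 in WT, so its 4.32-fold WT excess in epidermis was gone in 2KO. Klf4 and the Tfap2 factors did not differ by 2-fold in either genotype.

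Wound and defence genes of keratinocytes were another list weighted to the epidermis, with 11 of 24 measured members 2-fold higher in 2KO basal epidermis and 2 in ORS, against 11 and 2 of 22 in WT. The calprotectin subunit S100a9 read 5413 and 265 in 2KO (20.4-fold), and 1966 and 65.5 in WT (at least 23.6-fold). Its partner S100a8 read 6506 and 650.0 in 2KO and 2339.9 and 436 in WT. The cytokines Il24 (4407 and 954 in 2KO, 2486 and 438 in WT) and Tslp (1048 and 223, 529.7 and 172) were also epidermal in both genotypes. Defb1, a secreted antimicrobial peptide, read 9965 and 1873 in 2KO and 9084 and 6508 in WT, the smaller 2KO ORS signal giving a difference that WT lacked. Among stress keratins, Krt6b read 18089 and 1608 in 2KO and 3657 and 219 in WT, and Krt16 13089 and 2273 against 8878 and 1046. Both were higher in epidermis in both genotypes, while Krt17, of the follicle, did not differ. Other genes with large ratios in both genotypes were Npl, a sialic acid lyase (1423 and 130.3 in 2KO, 3569 and 70.7 in WT), Hs3st1, a heparan sulfate sulfotransferase (1693 and 79.4, 752 and 115), Ces2g, a carboxylesterase (3547 and 179, 1059 and 147), and Serpinb3a, a protease inhibitor (1557 and 69.2, 421 and 26.4).

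**Figure D3:**
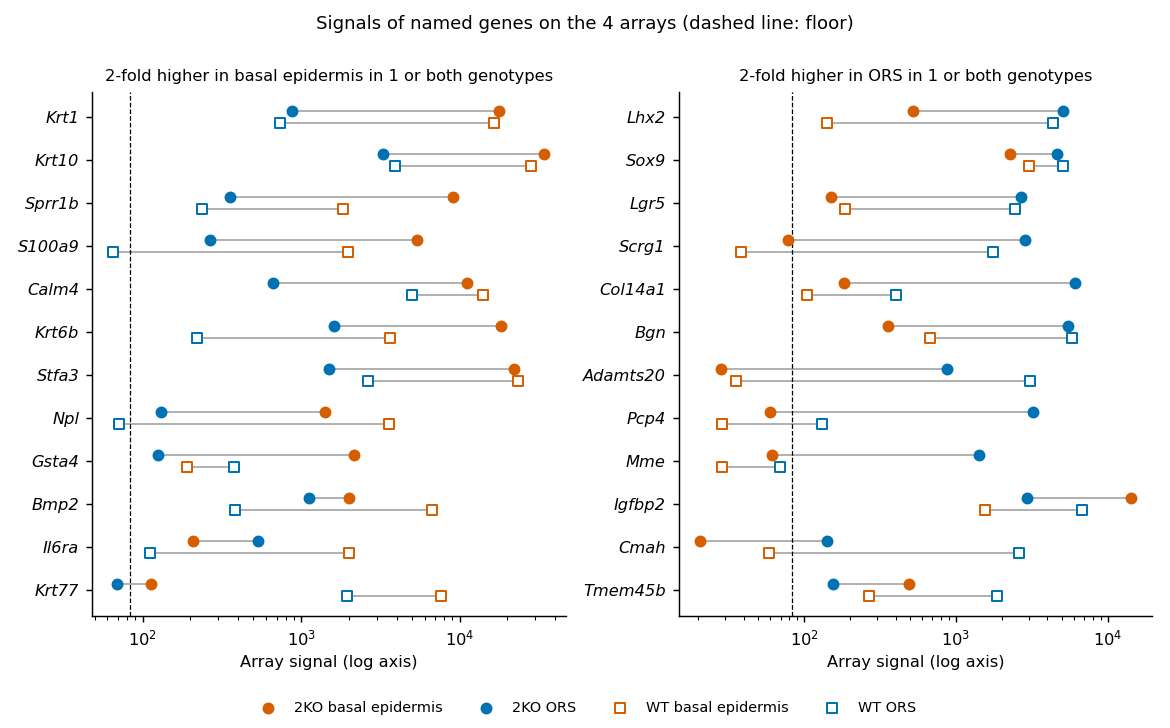
Array signals of 24 genes on a log axis, with filled circles for the 2KO pair, open squares for the WT pair, orange for basal epidermis, blue for ORS and a dashed line at the floor of 83.2; each point is 1 array and there are no error bars. Krt1 and Lgr5 show nearly the same spacing in both genotypes, Gsta4 and Pcp4 are spread in 2KO only, and Bmp2 and Cmah are spread in WT.

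On the ORS side, the list of ORS and follicle stem cell genes gave 16 of 30 measured members 2-fold higher in ORS in 2KO and 1 in basal epidermis. WT gave the same counts and the same median log2 ratio of -1.03, and 12 members were called in ORS in both genotypes. Lgr5, a receptor for R-spondins that marks cycling follicle stem cells, read 150.0 and 2683 in 2KO (17.9-fold) and 185 and 2450.3 in WT (13.2-fold). Tbx1, a factor of bulge cells, read 401 and 1984 in 2KO and 198 and 2345 in WT. Tcf7l1, a repressor that acts with beta-catenin targets, read 696 and 2280.5 in 2KO (3.28-fold) and 184 and 1736 in WT (9.44-fold). Its 1 other measured probe set was not 2-fold higher in 2KO ORS. For Lhx2, Tbx1 and Tcf7l1 the ORS signals of the 2 genotypes lay closer to each other than the epidermal signals did, and the 2KO epidermal signal was above the WT one, so their ratios were smaller in 2KO. Runx1, which acts in stem cell activation, had the opposite pattern, with 883 and 3991 in 2KO and 1151 and 1659 in WT, and 3 of its 5 other probe sets were also 2-fold in 2KO. The receptor genes Fzd2 and Fzd7 and the neurotrophin Bdnf were 2-fold higher in ORS in WT only: Fzd2 read 313 and 512 in 2KO and 176 and 1241 in WT.

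Several further genes had large ORS ratios in 2KO and were also called in WT. Scrg1 read 78.4 in 2KO basal epidermis, below the floor, and 2855 in 2KO ORS (at least 34.3-fold), and 38.4 and 1749.6 in WT (at least 21-fold). The proteoglycan Bgn read 358 and 5460.2 in 2KO and 671 and 5768 in WT, with both its other probe sets also 2-fold in 2KO. Col14a1, a fibril-associated collagen, read 182 and 6059 in 2KO (33.2-fold) and 104 and 400.4 in WT (3.83-fold). Its 2KO ORS signal was far above the other 3, so the wider ratio came from the ORS side. Adamts20, a secreted protease, read 28.3 and 877 in 2KO and 35.4 and 3057 in WT, and Shisa2, an inhibitor of WNT and FGF receptor maturation, read 204 and 2253 against 44.9 and 2173. Krtap17-1, a hair keratin-associated protein, read 129 and 3172 in 2KO and 65.5 and 1734 in WT. It was an ORS gene on these arrays although its family is known from the hair shaft.

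Extracellular matrix genes leaned further to the ORS in 2KO. In 2KO 11 of 24 measured members were 2-fold higher in ORS and 0 in basal epidermis, with a median of -0.85, against 6 and 1 of 23 in WT, with a median of -0.31. In both genotypes 6 members were called in ORS, among them Tnc, a matrix glycoprotein of the bulge (2829 and 9277 in 2KO, 1173 and 3953 in WT), the basement membrane collagen Col4a1 (2565 and 8853, 1583 and 7089.8) and Egfl6 (93.3 and 646, 40.6 and 628), a matrix protein made by upper bulge cells. Fn1, fibronectin, read 474 and 2029 in 2KO and 418 and 1469 in WT. Fibroblast marker genes lay to the same side and are given beside this list. Of 15 matched markers, 13 were measured in the 2KO pair, 3 of them 2-fold higher in ORS (Col5a1, Col6a2 and Pdgfrb) and 0 in basal epidermis, with a median of -0.72 against -0.11 in WT. Their summed signal was 16129 in 2KO basal epidermis, 28469 in 2KO ORS, 19352 in WT basal epidermis and 19448 in WT ORS. Other members leaned to 2KO ORS and missed 2-fold. Dcn read 2182 and 4254 in 2KO and 1045 and 928 in WT, and Col1a2 2736 and 5097.5 against 4970 and 4993. Col6a1 read 357 and 705 against 359 and 401. Col3a1, a dermal collagen, read 3722 and 5959 in 2KO, Pdgfra lay at 76.1 and 122, and Twist2 and Mfap5 were below the floor on all 4 arrays. The part of fibroblast RNA in the matrix genes, in Col14a1 and Bgn, and in the WNT, BMP, hedgehog and imprinted genes described next, which leaned to ORS in 2KO as well, was not tested.

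The WNT list held 15 of 40 measured genes 2-fold higher in 2KO ORS and 2 in basal epidermis, with a median of -0.73, against 13 and 7 of 37 in WT, with a median of -0.33. With a common median the counts were 8 and 4 in 2KO and 10 and 7 in WT. Among ligands, Wnt4 read 6049.9 and 2603 in 2KO and 4508 and 1526 in WT, and Wnt10a 1632 and 714 against 2065 and 969, so both stayed epidermal. Among receptors, Fzd1 (1046 and 3896 in 2KO, 1113 and 3622 in WT) stayed an ORS gene, while Fzd10 and the co-receptor Lrp4 were epidermal in WT only. Lrp4 read 735 and 665 in 2KO and 1422 and 345 in WT. Secreted inhibitors were on the ORS side in both genotypes: Sfrp1 read 1037 and 3502 in 2KO and 1126 and 6382 in WT, and Dkk3 284 and 1262 against 176 and 801. Wif1, which binds WNT proteins, read 854 and 4786 in 2KO and 113 and 228 in WT. It was called in ORS in both genotypes, at a signal far higher on both 2KO arrays than on the WT arrays. Axin2, a target of the pathway, did not differ by 2-fold in either genotype.

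In the BMP and TGF-beta list 9 of 27 measured genes were 2-fold higher in 2KO ORS and 0 in basal epidermis, with a median of -0.76. The epidermal count was 2 with a common median and 1 after quantile normalization or with averaged probe sets. In WT the counts were 8 and 4 of 28 and the median -0.01. Bmp2, the ligand with the largest WT ratio, read 1993 and 1124 in 2KO (1.77-fold) and 6664 and 383 in WT (17.4-fold). Its 2KO epidermal signal was the lower of the epidermal pair and its 2KO ORS signal the higher of the ORS pair. The ligands Tgfb2 (405 and 1907 in 2KO, 184 and 658 in WT) and Tgfb3 (437 and 2320.0, 461 and 1439.6) stayed ORS genes, as did Ltbp3, a latency protein that holds TGF-beta in the matrix (1856 and 6635, 3763 and 10242). Of the growth factor receptors, Fgfr1 read 1179 and 4687 in 2KO and 669 and 2203 in WT and stayed higher in ORS. Fgfr2, the receptor of keratinocyte growth factor, was epidermal in WT (5259 and 2491) and not in 2KO (1862 and 2728). Igfbp2 and Igfbp3, binding proteins of insulin-like growth factors, also changed side or lost their difference: Igfbp2 read 14158 and 2928 in 2KO and 1541 and 6789.6 in WT, and Igfbp3 7604 and 8041 against 12731 and 2168.

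More hedgehog pathway genes passed 2-fold in 2KO than in WT, a difference that was not tested. In this pathway the ligand Shh relieves Smo from inhibition by Ptch1, and Gli factors then act on targets that include Gli1, Ptch1 and Hhip themselves. In 2KO 6 of 14 measured members were 2-fold higher in ORS and 0 in basal epidermis. In WT 0 of 11 were 2-fold either way, although the medians were close, -0.70 in 2KO and -0.57 in WT. The count of 6 was the same with a common median, with hybridisation controls and after quantile normalization. Gli1 read 131 and 1102 in 2KO (8.43-fold) and 102 and 179 in WT (1.75-fold). Ptch1 read 1138 and 3981 in 2KO (3.50-fold) and 1248 and 1974 in WT (1.58-fold). For both targets the 2KO ORS array stood above the other 3. Gli2 read 1351 and 3436 in 2KO and 961 and 1533 in WT. The co-receptor Boc read 579 and 1786 against 789 and 1181, and Hhip reached the floor on the 2KO ORS array alone, at 229. The call was less firm across probe sets: averaging all probe sets of a gene left 2 of the 6, Gli1 and Gli2, since Ptch1, Boc and Hhip came below 2-fold and Shh was then not measured. The ligand Shh, also among the 6, read 45.8 and 217 in 2KO (at least 2.61-fold) and 56.2 and 147 in WT (at least 1.77-fold), with both epidermal signals below the floor. Smo and Sufu did not differ by 2-fold in either genotype.

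Sebocyte genes showed the reverse: they separated the populations more in WT than in 2KO. In WT 9 of 10 measured members were 2-fold higher in ORS, with a median of -1.87. In 2KO 3 of 9 were, beside 6.73% of all genes measured, with a median of -0.13 that was 0.23 with a common median. Those 3 were Far2 (at least 2.96-fold), Elovl3 (2.59-fold) and Scd1 (2.08-fold). They were also called in WT ORS, at 9.53-fold, 5.69-fold and 3.62-fold. Of the 10 genes, 7 shifted by at least 2-fold towards basal epidermis and 0 towards ORS. Scd1, a stearoyl-CoA desaturase, read 2977 and 6194 in 2KO and 6636 and 24028 in WT. Plin2, a lipid droplet coat protein, read 4676 and 4215 in 2KO and 3819.5 and 14169 in WT, and Cidea, which enlarges lipid droplets, read 591 and 403 against 367 and 2876. In all 3 the WT ORS array was the one that stood high. The summed signal of the 10 matched genes was 52828 in WT ORS and between 11833 and 14958 on the other 3 arrays. Other genes with large WT ORS ratios that were not called in 2KO ORS included Acaa1b, of peroxisomal fatty acid oxidation (1158 and 446 in 2KO, 109 and 950.4 in WT), Cmah, of sialic acid synthesis (20.7 and 142, 59.1 and 2578), Pm20d1 (323 and 241, 79.1 and 1073) and Gdf10 (31.4 and 19.2, 25.1 and 773). The upper follicle genes Cst6 and Defb6 followed the same course, Defb6 with 1046 and 944 in 2KO and 6432 and 13578 in WT. Fewer sebocytes in the 2KO ORS sample and less of this RNA per cell cannot be told apart in bulk samples, and the same holds for every cell type named here.

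**Figure D4:**
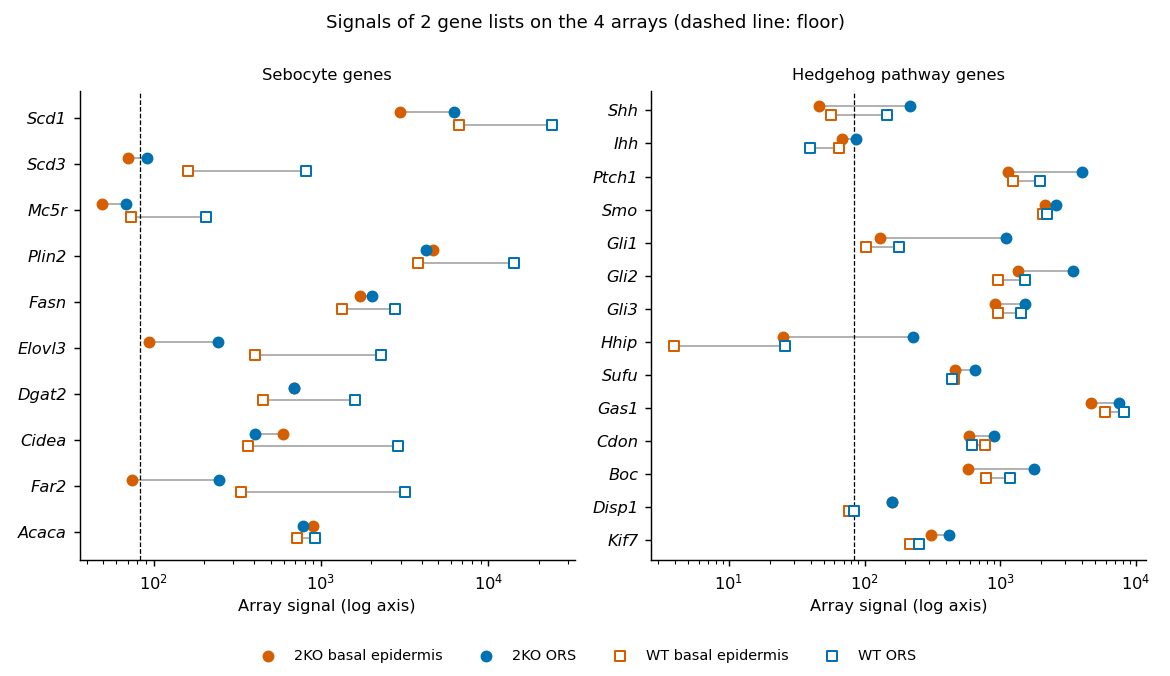
Array signals of the sebocyte and hedgehog pathway genes on a log axis, with filled circles for 2KO, open squares for WT, orange for basal epidermis, blue for ORS and a dashed line at the floor; each point is 1 array. In the left panel the WT ORS signal lies apart to the right for most genes. In the right panel the 2KO ORS signal does so for Gli1, Ptch1, Gli2, Boc and Hhip.

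A small set of genes was called in opposite directions. In 11 genes a WT epidermal difference stood against a 2KO ORS difference, and in 12 the reverse. Il6ra, the interleukin 6 receptor, read 208 and 533 in 2KO and 2013 and 111 in WT, so an 18.1-fold excess in WT epidermis stood against a 2.56-fold excess in 2KO ORS. The 2KO call was lost when its probe sets were averaged (log2 ratio -0.77) and with the floor at the 75th percentile (-0.20), and its 1 other measured probe set was not 2-fold in 2KO. The cytokine Tnf read 399 and 1535 in 2KO and 325 and 133 in WT, and Thsd4, a matrix protein of microfibrils, 269 and 940.3 against 542 and 50.3. For Tnf and Thsd4 the 2KO ORS array was the highest of the 4, while Il6ra was highest in WT epidermis. Bbox1, of carnitine synthesis, read 49.6 and 361 in 2KO and 1960.2 and 703 in WT. Its 1 other measured probe set was not 2-fold higher in 2KO ORS. Towards the epidermis, Tmem45b read 492 and 154 in 2KO and 269 and 1864 in WT, and Adtrp 657 and 141 against 898 and 2647. Both were highest on the WT ORS array and missed 2-fold in 2KO with the floor at the 75th percentile (log2 ratios 0.08 and 0.50), whereas Igfbp2, given above, was highest in 2KO epidermis. Serpinb7, an epidermal protease inhibitor, and Gnmt, a methyl transfer enzyme, show smaller 2KO contrasts with the side kept: Serpinb7 read 159.7 and 21 in 2KO and 1359.5 and 20.6 in WT, and Gnmt 135 and 692 against 114 and 3260.2.

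Genes that differed in 2KO and not in WT numbered 339 in basal epidermis and 522 in ORS. Of these, 41 and 107 were below the floor on both WT arrays. Another 238 and 333 had a WT ratio of the same sign that missed 2-fold, and 60 and 82 one of the opposite sign. On the epidermal side the largest was Gsta4, a glutathione transferase for lipid peroxidation products, with 2151 and 125 in 2KO (17.2-fold) and 190.3 and 377 in WT, where ORS was 1.98-fold higher. Gpx2, a glutathione peroxidase of epithelia, read 1484 and 216 in 2KO and 92.2 and 93.8 in WT. The metallothionein Mt4 of stratified epithelia read 3078 and 204 in 2KO and 633 and 334 in WT. Slc5a1, a sodium-glucose transporter, read 1088 and 137 in 2KO and close to the floor in WT. Krt12, the keratin of corneal epithelium, read 625 in 2KO basal epidermis and lay below the floor on the other 3 arrays.

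On the ORS side the largest were Pcp4 and Mme. Pcp4, a calmodulin-binding peptide, read 59.6 in 2KO basal epidermis, below the floor, and 3199 in 2KO ORS (at least 38.5-fold), with 28.8 and 132 in WT. Mme, the cell surface peptidase neprilysin, read 61.7 and 1412 in 2KO (at least 17-fold) and lay below the floor on both WT arrays. Both were thus bright on 1 array of the 4. Ephb6 differed from them: it read 400.4 and 3015 in 2KO and 1461 and 1952 in WT, so that its 2KO ratio of 7.53-fold came mostly from the lower epidermal signal.

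More developmental genes of other lineages were measured in the 2KO pair than in the WT pair. For scale, of all 18193 genes 11966 were measured in the 2KO pair and 11320 in the WT pair. Of the posterior Hox genes, which pattern the limbs and trunk, 12 of 14 matched were measured in 2KO, against 3 in WT. In 2KO 2 of the 12 were 2-fold higher in ORS, beside 6.73% of all genes measured. Those 2 were Hoxd10 (214 and 665) and Hoxd13 (266 and 799), while Hoxb13 read 509 and 350.5 and Hoxd9 537 and 531. Of 87 matched developmental regulators of other lineages, 56 were measured in 2KO and 16 in WT, and 29 were below the floor on all 4 arrays. In 2KO 10 of the 56 were 2-fold higher in ORS and 3 in basal epidermis, beside 6.73% and 4.32% of all genes measured. With a common median these counts were 3 and 4, and averaging all probe sets gave 3 and 2, so the lean to the ORS depended on the scaling and on the choice of probe set. Foxf1 read 126 and 460.5 and Tbx5 13.4 and 307, both below the floor in WT, whereas Zic1, with 2775 and 3656, and Sox2, with 509 and 507, were at near equal signal. The INK4 gene Cdkn2a likewise read 2385 and 2839.8 in 2KO and was below the floor in WT, with no 2-fold difference between the 2KO populations.

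Of 17 measured imprinted genes, 6 were 2-fold higher in 2KO ORS and 0 in basal epidermis, against 1 and 2 of 15 in WT, and 7 shifted by at least 2-fold towards ORS. Zdbf2 read 658 and 2710.0 in 2KO and was below the floor in WT. The cell cycle inhibitor Cdkn1c read 130.4 and 608 in 2KO and 42.4 and 86.4 in WT, and the long noncoding RNA Meg3 read 491 and 1748 against 274 and 308, with 5 of its 8 other probe sets also 2-fold in 2KO. All 3 were highest on the 2KO ORS array. Of 8 measured genes of simple epithelia and Merkel cells, 1 was 2-fold higher in 2KO basal epidermis and 1 in ORS. Krt7, a keratin of simple epithelia, was the epidermal one, with 2806 and 545 in 2KO and 143 and 78.7 in WT, and Krt8 lay on the ORS side in both genotypes, with 379.6 and 1542 against 67.5 and 477. Krt18, the partner of Krt8, read 1533 and 1810.3 in 2KO and did not differ by 2-fold. The Merkel cell factor Atoh1 was below the floor on all 4 arrays, and Krt20 read 100.4 in 2KO basal epidermis and below the floor elsewhere.

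Few cell cycle genes passed 2-fold. All 41 matched genes were measured, 3 were 2-fold higher in 2KO basal epidermis and 0 in ORS, beside 4.32% and 6.73% of all genes, and the median was 0.46 against 0.01 in WT, where 0 were 2-fold either way. With a common median the 2KO count was 12 and 0. The 3 were Cdk1, the mitotic kinase, Birc5 and Ube2c. Ube2c, of the anaphase-promoting complex, read 8111 and 3125 in 2KO and 3108 and 2740.0 in WT. Birc5, survivin, read 3793 and 1544 in 2KO and 1636 and 1275 in WT, so for both the 2KO epidermis array was the highest of the 4. AP-1 and immediate early genes, which respond to handling, had 0 of 19 members at 2-fold in 2KO and 2 in WT, with medians of -0.24 and 0.23. The 2KO median turned to 0.10 with a common median. Interferon and MHC class I genes gave 0 of 19 in 2KO and 2 of 20 in WT. The PRC2 list, without Ezh1, which was not measured there, and the PRC1 list gave 0 of 10 and 0 of 16 in 2KO. Basal layer and anchorage genes gave 0 of 14 in 2KO basal epidermis and 1 in ORS. Barrier lipid genes gave 4 of 12 and 1, Notch genes 1 of 12 and 0, growth factor genes 3 of 25 and 5, and anterior Hox genes 1 of 12 and 1. p53 targets gave 1 of 18 and 1, CDK inhibitors 0 of 7 and 1, hair shaft genes 0 of 13 and 3, and inner root sheath genes 0 of 10 and 1. Over all genes measured in 2KO the shares were 4.32% in basal epidermis and 6.73% in ORS, and these short lists were not tested against them.

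Markers of other cells that a skin sort can hold were not all dim on the 2KO pair. In 2KO basal epidermis and ORS, the fibroblast markers summed to 16129 and 28469 and the sebocyte genes to 11833 and 14958. The sebocyte members were uneven, and 7 of 10 reached the floor in 2KO basal epidermis and 9 in 2KO ORS. Scd1 read 2977 and 6194 and Fasn 1716 and 2025, while Far2 read 74.8 and 246 and Elovl3 94.2 and 244. The immune, melanocyte, muscle, endothelial and erythroid lists had lower summed signals than these on both 2KO arrays. Of 16 matched immune markers, 11 were measured in 2KO and 0 were 2-fold either way, with a summed signal of 8333 in basal epidermis and 7604 in ORS, against 10805 and 5872 in WT, where 3 were epidermal. The T cell genes Cd3e, Cd3g and Cd3d and the Langerhans cell gene Cd207 were below the floor on all 4 arrays. Of the melanocyte markers 1 of 7 measured was 2-fold higher in 2KO ORS, Mitf, with summed signals of 1188 and 1913. No skeletal muscle, endothelial or erythroid marker was 2-fold either way in 2KO. Hair keratins were nearer the floor in 2KO than in WT: Krt35 read 36.5 and 90.8 in 2KO and 892 and 645 in WT, and Krt25, of the inner root sheath, 84.4 and 135 against 1171 and 1052. The part of these markers in the results was not tested.

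**Figure D5:**
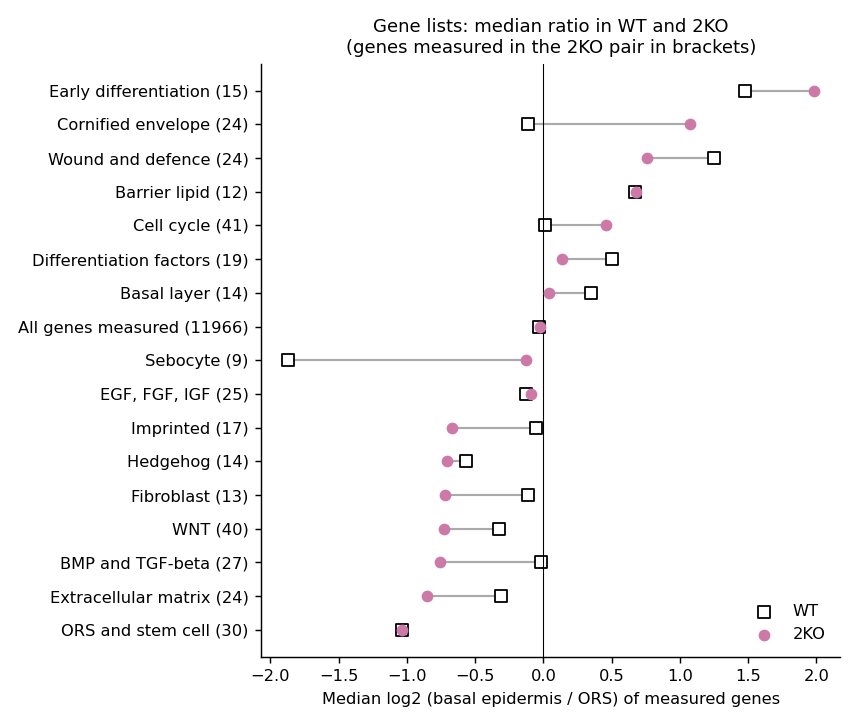
Median log2 ratio of basal epidermis over ORS for 16 gene lists and all genes measured, with open squares for WT and filled circles for 2KO; each median is over the genes measured in that pair and has no replicate error. The medians of early differentiation and of ORS and stem cell genes lie far from 0 on opposite sides in both genotypes, while the sebocyte median moves from -1.87 in WT to -0.13 in 2KO.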

How the data were processed

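The authors deposited 1 MAS5 intensity per probe set and array on a linear scale; MAS5 is named per the submitters' processing notes, without a version. The array design is named in 2 ways in the series text, and the deposited table holds 45101 probe sets. The 64 control probe sets were left out. Of the rest, 34945 named 1 gene, 932 several and 9160 none in the platform annotation, and each of the 18193 genes was read from its brightest probe set over the 6 arrays. The arrays came scaled to an equal trimmed mean (2% trimmed at each end) and were not rescaled. Signals were floored at 83.2 and compared as log2 ratios, with 2-fold as the threshold, as in the series text. No test was run, since each group has 1 array, and the number of arrays limits the precision.

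The genes, lists and comparison were chosen with earlier results of these data known. Genes named by rule were Krt1, Sox9, Lhx2, Ezh1, Ezh2 and the sex-linked genes, the 10 highest and 10 lowest 2KO ratios, the 10 strongest each way among genes called in both genotypes, in WT only and in 2KO only, and up to 6 members per list with the largest 2KO ratio. Any other gene named, such as Krt77, Lce3c, Ivl, Fzd2, Wnt4, Igfbp3, Plin2, Hoxd9, Zic1 or Sox2, was chosen after its values were seen. The calling of genes in both genotypes was checked on simulated data, with equal 3-fold differences planted in both genotypes in genes well above the floor. Genes called in 1 genotype only or in opposite directions, and dim genes, were not simulated. Alternatives were 3 other scalings, 2 other floors, other rules for probe sets, a 3-fold threshold and leaving out X and Y genes. Promoter sequences came from a RefSeq table. Python 3.11.15, numpy 2.4.6, pandas 2.3.3, scipy 1.17.1 and matplotlib 3.10.9 were used.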

Additional observations from a re-analysis of the deposited data

Results flagged for a closer look

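Of the genes measured, 12 were at least 2-fold higher in WT ORS and at least 2-fold higher in 2KO basal epidermis, and 11 went from WT basal epidermis to 2KO ORS. With 1 array per group the difference between the genotypes was not tested for any of them. Among those towards the epidermis, the 2KO log2 ratio of basal epidermis over ORS was 1.38 for Acaa1b, 1.67 for Tmem45b, 2.27 for Igfbp2, 2.22 for Adtrp and 1.49 for Mal2. Among those towards ORS it was -1.36 for Il6ra, -1.80 for Thsd4, -2.12 for Bbox1 (a bound, with the epidermal signal at the floor) and -1.95 for Tnf. The WT log2 ratios of these 4 were 4.18, 2.70, 1.48 and 1.29, where that of Thsd4 is a bound. With the floor at the 75th percentile the 2KO ratio missed 2-fold for Il6ra (-0.20), Tmem45b (0.08), Adtrp (0.50) and Mal2 (0.78), and Bbox1 gave no value. With all probe sets averaged, Il6ra read -0.77 and its call was lost. The 1 other measured probe set of Bbox1 was not 2-fold higher in 2KO ORS.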

How the results depend on the processing

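With a common median, 1203 genes were called in 2KO basal epidermis and 437 in ORS, 269 and 157 of them also in WT. With the floor at the 25th percentile the 2KO counts were 868 and 1592, with 502 ORS genes called in both genotypes, and with the floor at the 75th percentile 260 and 279, with 72 and 92 called in both. A 3-fold threshold gave 158 and 265, with 65 and 90 in both. Requiring all 4 signals above the floor, an alternative chosen after seeing the data, left 520 ORS genes. The cause of these changes was not tested, beyond fewer or more genes passing the stricter or looser threshold. Hybridisation controls, quantile normalization, averaged probe sets, leaving out _x_at and _s_at probe sets, and leaving out X and Y genes kept these 4 counts within 1.5 times. The share of WT genes also called in 2KO ranged from 29.3% to 41.2% in basal epidermis and from 30.8% to 40.8% in ORS over all alternatives. The number of genes called in opposite directions ranged from 3 to 117. No paired analysis was possible because each group has 1 array and the labels give no replicate numbers. Ratios of dim genes are bounds, and the 2KO sex label went against the Y-linked signals.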
